A study of Homo sapiens with 9 samples.

Results

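The genes of MHC class I antigen presentation were followed in HNES1 cells, an embryo-derived human pluripotent stem cell line, treated with compounds against Polycomb repressive complex 2 (PRC2), the complex that places the repressive H3K27me3 mark. The 9 members were taken by gene symbol from a table of 56312 entries: the heavy chains HLA-B, HLA-C, HLA-E, HLA-F and HLA-G, the light chain B2M, the peptide transporter subunit TAP1, and the immunoproteasome subunits PSMB8 and PSMB9. Each symbol had 1 entry, and all 9 passed the expression filter that left 24182 genes for testing. The rule for membership uses the symbol alone, not measured values, but the symbols were chosen with earlier results of these data known.

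The 9 RNA-seq libraries were all from wild-type HNES1 cells on day 5 after withdrawal from naive medium, and fell into 3 groups of 3. The PROTAC group received UNC6852 at 2.5 µM, which degrades the PRC2 subunit EED. The UNC group received UNC1999 at 1 µM, an inhibitor of the catalytic subunits EZH1 and EZH2. The DMSO group received the solvent. Compounds or solvent were given from the last day in naive medium onward, and all groups were then kept in N2B27 with the tankyrase inhibitor XAV939. The stock cells had been grown on irradiated mouse feeder cells and were replated on Geltrex for the experiment, and the groups come from a single line.

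MHC class I molecules are cell-surface complexes of a heavy chain, B2M and a short peptide, which are read by CD8 T cells and natural killer (NK) cells. The peptides are cut by the proteasome, carried into the endoplasmic reticulum by the TAP1-TAP2 transporter and loaded with the help of chaperones. In the immunoproteasome, PSMB8, PSMB9 and PSMB10 take the place of the catalytic subunits PSMB5, PSMB6 and PSMB7. NLRC5 is a transactivator of class I promoters, and interferons raise most of these genes. Pluripotent stem cells are known for low class I levels.

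Library totals were 31651742 to 101081643 counts, and the 9 genes together took 0.0207 to 0.0258% of them. Summed over the 9 genes, the 3 PROTAC libraries held 222, 260 and 234 CPM (read counts scaled to a common library size with TMM factors), the UNC libraries 213, 268 and 238 CPM, and the DMSO libraries 200, 240 and 216 CPM. The libraries numbered 2 were the highest of each group. POU5F1, a pluripotency factor, stood at 677 to 792 CPM in all libraries. It is a single gene, and calls in lists of pluripotency markers are given below. PTPRC, the pan-leukocyte marker, had no counts in any library, and the 12 leukocyte markers summed to 12.9 to 18.5 CPM in PROTAC, 12.6 to 18.7 CPM in UNC and 12.4 to 17.5 CPM in DMSO libraries. In bulk RNA, fewer cells that express a gene and less of its RNA per cell cannot be told apart.

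Levels were set side by side after division by transcript length (CPM per kb, mean ± SD over all 9 libraries). The length is that of 1 principal transcript per gene, 1705 bases for B2M and 1536 for HLA-C. The order of the genes can depend on that choice, and other transcripts were not tried. HLA-E was highest at 43.9 ± 5.74 CPM per kb, and its lowest library lay above the highest of every other member. Whether reads of HLA alleles that differ from GRCh38 were lost in alignment was not tested. HLA-C (20.4 ± 1.89 CPM per kb) and B2M (20.3 ± 2.55 CPM per kb) overlapped each other, and HLA-B followed at 14.3 ± 1.2 CPM per kb, with libraries that overlapped those of B2M but not those of HLA-C. TAP1 stood apart from its neighbours on both sides at 6.2 ± 0.697 CPM per kb. PSMB8 (3.66 ± 0.766) and HLA-F (3.13 ± 0.422) overlapped, and so did HLA-G (1.13 ± 0.184) and PSMB9 (1.06 ± 0.324 CPM per kb), the lowest of the set. Between the lowest and the highest library the CPM differed by a factor of 1.29 for HLA-B and of 2.86 for PSMB9, the extremes of the 9 genes.

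**Figure D1:**
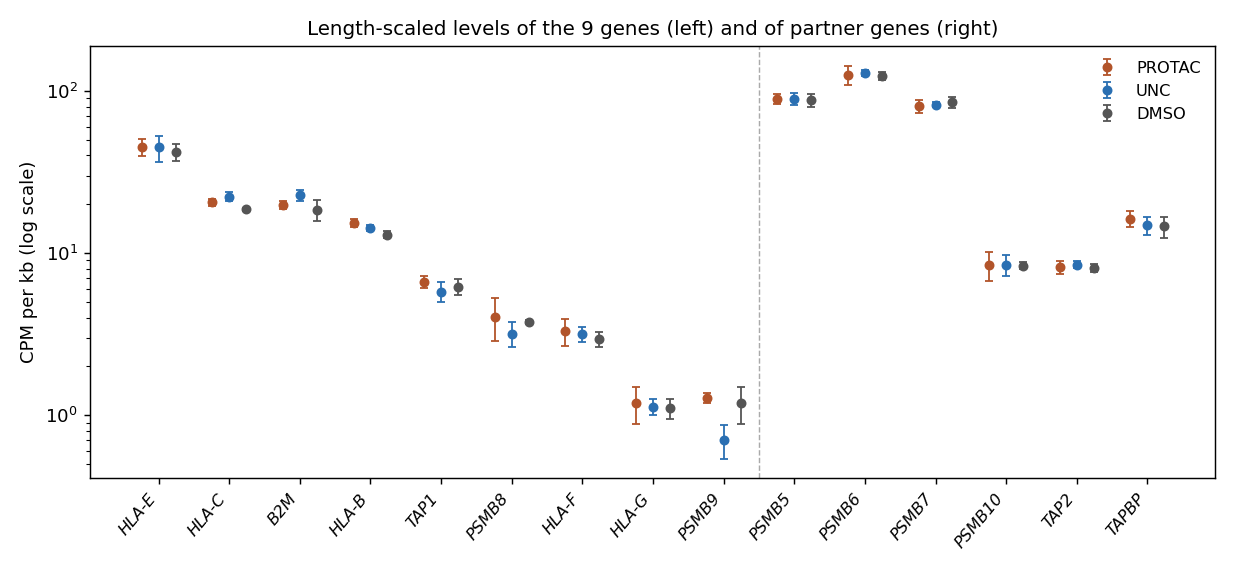
Mean level per kb of transcript (log axis) with SD over 3 libraries per group, for the 9 genes left of the dashed line and for partner genes right of it. HLA-E leads the 9 genes and PSMB9 is the one whose UNC mean lies clearly below the other groups, while PSMB5, PSMB6 and PSMB7 stand far above PSMB8 and PSMB9.

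A pair of fits was used for every gene. The planned main fit compared the groups alone (edgeR quasi-likelihood test, Benjamini-Hochberg adjustment over 24182 genes, threshold 0.05). The paired fit adds the replicate number as a block, because libraries with the same number deviated together. Member and list counts are given for both, and the direction words below refer to the paired fit unless the group-alone fit is named.

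In the heavy chains, HLA-B rose under the PROTAC by 0.24 on the log2 scale and HLA-C rose under UNC by 0.27, while HLA-E, HLA-F and HLA-G did not pass the test in any comparison. HLA-B and HLA-C present peptides to CD8 T cells and are ligands of NK receptors. They lie on the minus strand of chromosome 6 (GRCh38), HLA-B at chr6:31353872-31367067 and HLA-C at chr6:31268749-31272130. The promoters of this pair are shown because these heavy chains carried the calls: the 250 bases before the RefSeq start (GRCh38.p14, minus strand, 5′ to 3′), chr6:31357180-31357429 for HLA-B and chr6:31272093-31272342 for HLA-C. Capitals mark matches, on either strand, to GGGA and CC with any 4 bases between them (a kB-like motif), TGACG (as in the X2 box) or CCAAT (the Y-box core), and neighbouring matches can share bases.
HLA-B: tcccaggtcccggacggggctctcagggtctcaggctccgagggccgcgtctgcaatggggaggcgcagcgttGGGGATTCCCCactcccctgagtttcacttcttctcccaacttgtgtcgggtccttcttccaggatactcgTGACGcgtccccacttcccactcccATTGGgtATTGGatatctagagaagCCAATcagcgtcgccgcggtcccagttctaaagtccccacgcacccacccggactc
HLA-C: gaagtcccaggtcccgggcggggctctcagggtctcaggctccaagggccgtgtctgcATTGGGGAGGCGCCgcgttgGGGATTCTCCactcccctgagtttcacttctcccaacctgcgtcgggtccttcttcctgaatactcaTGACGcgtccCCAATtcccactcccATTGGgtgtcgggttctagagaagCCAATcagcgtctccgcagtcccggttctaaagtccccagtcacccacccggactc
Both windows held kB-like matches, at 176 bases before the start in HLA-B (and at 177 on the opposite strand, sharing bases) and at 172 and 188 in HLA-C, and a TGACG match at 106 and at 105 bases. Neither held the letters searched for an interferon-stimulated response element (ISRE), GAAA and GAAA with any 2 bases between them. Elements with other letters were not searched, so the search does not show that either promoter lacks one. Over 35116 RefSeq windows of the same length, 22.6% held the kB-like motif, 21.2% TGACG, 32% CCAAT and 3.02% the ISRE-like motif, on either strand.

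HLA-B had 22.4, 24.8 and 24.4 CPM in PROTAC libraries, 22.8, 22.5 and 21 CPM in UNC libraries and 19.2, 21 and 20.4 CPM in DMSO libraries. Every PROTAC library lay above every DMSO library, and the UNC libraries overlapped the PROTAC ones. The log2 fold change of PROTAC against DMSO was 0.24 (SE 0.069, 95% interval 0.10 to 0.38), with 0.22, 0.24 and 0.26 in the pairs of the same number and an edgeR adjusted p of 0.0452 in the paired fit. The group-alone fit gave the same fold change with an adjusted p of 0.938. Leaving out any of the 9 libraries, or all of a number, ended the paired call in 12 of 12 cases, with fold changes of 0.21 to 0.28 and adjusted p of 0.0515 to 0.264. In UNC against DMSO it was 0.13 (paired adjusted p = 0.214, edgeR), also without overlap.

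HLA-C had 30.2, 33.3 and 30.7 CPM in PROTAC libraries, 33.2, 36.9 and 32.8 CPM in UNC libraries and 29.1, 27.7 and 28.7 CPM in DMSO libraries. All 6 treated libraries lay above the 3 DMSO libraries. Against DMSO, the log2 fold change under UNC was 0.27 (SE 0.0629, 95% interval 0.14 to 0.39), positive in 3 of 3 pairs at 0.19, 0.41 and 0.19, with an edgeR adjusted p of 0.0031 in the paired fit and 0.152 in the group-alone fit. Without UNC library 2 the paired adjusted p was 0.0693, without DMSO library 2 it was 0.0854, and without all libraries numbered 2 it was 0.174. Under the PROTAC the log2 fold change was 0.14 (paired 95% interval 0.01 to 0.27, edgeR adjusted p = 0.256), which did not pass.

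HLA-E, the ligand of the inhibitory NK receptor CD94-NKG2A (chr6:30489509-30494194, plus strand), had 104, 132 and 116 CPM in PROTAC, 95.3, 138 and 117 CPM in UNC and 97.8, 123 and 105 CPM in DMSO libraries. Each group was lowest in the library numbered 1 and highest in that numbered 2, and the groups overlapped. Its log2 fold changes were 0.11 (paired 95% interval 0.01 to 0.22) for PROTAC and 0.09 (-0.01 to 0.20) for UNC against DMSO, with edgeR adjusted p of 0.271 and 0.272.

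HLA-F (chr6:29722775-29738528, plus strand) had 4.85, 4.72 and 6.56 CPM in PROTAC, 4.54, 5.35 and 5.63 CPM in UNC and 4.22, 5.21 and 5.02 CPM in DMSO libraries. HLA-G, known for its expression in extravillous trophoblast (chr6:29826967-29831125, plus strand), had 2.3, 1.9 and 1.36 CPM in PROTAC, 1.99, 1.73 and 1.6 CPM in UNC and 1.93, 1.82 and 1.46 CPM in DMSO libraries. Neither gene separated the groups: the paired log2 fold changes were 0.13 and 0.11 for PROTAC and 0.09 and 0.04 for UNC against DMSO. The HLA-G interval for UNC against DMSO ran from -0.31 to 0.39. In the same comparison 10 of 18 trophoblast markers tested were lower and 1 higher in the paired fit, led by GATA2 (log2 fold change -1.08) and GATA3 (-1.52), and the 20 listed summed to 443 to 535 CPM in UNC and 494 to 598 CPM in DMSO libraries. Of all genes tested, the paired fit called 6.46% lower and 7.05% higher. By group alone 1 of the 18 was lower, as were 0.401% of all genes. The antisense gene HLA-F-AS1 overlaps HLA-F along its whole length and HLA-G over 1530 bases, with 2091 counts against 3058 for HLA-F, and unstranded counting would mix them.

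The light chain B2M was higher under UNC. It lies at chr15:44711358-44718851 on the plus strand, outside the MHC, and pairs with every class I heavy chain. Its promoter is shown because it holds all 4 kinds of motif searched: chr15:44711267-44711516, plus strand, RefSeq GRCh38.p14, with capitals for matches to the ISRE-like or kB-like motif, TGACG or CCAAT on either strand.
B2M: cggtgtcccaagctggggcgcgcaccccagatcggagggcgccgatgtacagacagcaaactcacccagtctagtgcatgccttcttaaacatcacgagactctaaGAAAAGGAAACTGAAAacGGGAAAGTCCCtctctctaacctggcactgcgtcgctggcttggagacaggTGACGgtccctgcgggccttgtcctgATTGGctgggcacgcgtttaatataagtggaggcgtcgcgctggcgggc
The ISRE-like matches start at 144 and 138 bases before the start and share bases, the kB-like matches lie at 126 and 125, TGACG at 75 and CCAAT, on the opposite strand, at 49.

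B2M had 33.6, 35.6 and 31.9 CPM in PROTAC libraries, 35.1, 40.7 and 40.5 CPM in UNC libraries and 26.8, 36 and 31.9 CPM in DMSO libraries. UNC library 1 was below DMSO library 2, so the groups overlapped, but each UNC library was above the DMSO library of its number. The paired log2 fold change of UNC against DMSO was 0.30 (SE 0.0654, 95% interval 0.17 to 0.43), with 0.39, 0.18 and 0.34 in the pairs and an edgeR adjusted p of 0.00126. The group-alone fit gave 0.29 with an adjusted p of 0.252. The paired call remained in 12 of 12 cases with libraries left out, with adjusted p of 0.000192 to 0.0317. For PROTAC against DMSO the paired value was 0.11 (95% interval -0.03 to 0.24, edgeR adjusted p = 0.449), positive in 1 of 3 pairs.

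Among the genes of peptide supply, PSMB9 was lower under UNC, and TAP1 and PSMB8 did not pass in any comparison. TAP1, a subunit of the peptide transporter, and PSMB8 and PSMB9, the LMP7 and LMP2 subunits of the immunoproteasome, lie next to each other in the class II region of chromosome 6. In the deposited table PSMB8 spans chr6:32840717-32844679 (minus strand), TAP1 chr6:32845209-32853816 (minus strand) and PSMB9 chr6:32844136-32860734 (plus strand), so the table's PSMB9 entry holds the whole 8608 bases of TAP1 and shares 544 bases with PSMB8. RefSeq places the starts of TAP1 and PSMB9 488 bases apart on opposite strands. The 250 bases before each start are shown because the neighbours share this interval: chr6:32853705-32853954 (minus strand) for the first of the TAP1 starts and chr6:32853942-32854191 (plus strand) for PSMB9, RefSeq GRCh38.p14, with capitals for the same motifs.
TAP1: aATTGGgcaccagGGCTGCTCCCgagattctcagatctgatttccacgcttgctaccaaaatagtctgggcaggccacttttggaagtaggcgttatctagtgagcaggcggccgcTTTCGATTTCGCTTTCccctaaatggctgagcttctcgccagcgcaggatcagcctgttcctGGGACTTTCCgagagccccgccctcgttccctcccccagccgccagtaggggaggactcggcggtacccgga
PSMB9: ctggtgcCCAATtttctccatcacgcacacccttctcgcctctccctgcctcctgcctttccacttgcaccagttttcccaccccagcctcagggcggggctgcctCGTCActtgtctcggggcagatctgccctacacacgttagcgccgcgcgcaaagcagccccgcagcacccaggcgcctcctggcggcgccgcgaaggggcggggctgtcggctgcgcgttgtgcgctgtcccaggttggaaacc
The windows overlap by 13 bases. In TAP1, the ISRE-like motif matches the opposite strand at 134 and 128 bases before the start, where the matches share bases, kB-like letters lie at 72 and, on the opposite strand, at 237, and CCAAT, also opposite, at 249. In PSMB9 the letters found were TGACG on the opposite strand at 144 and CCAAT at 243.

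**Figure D2:**
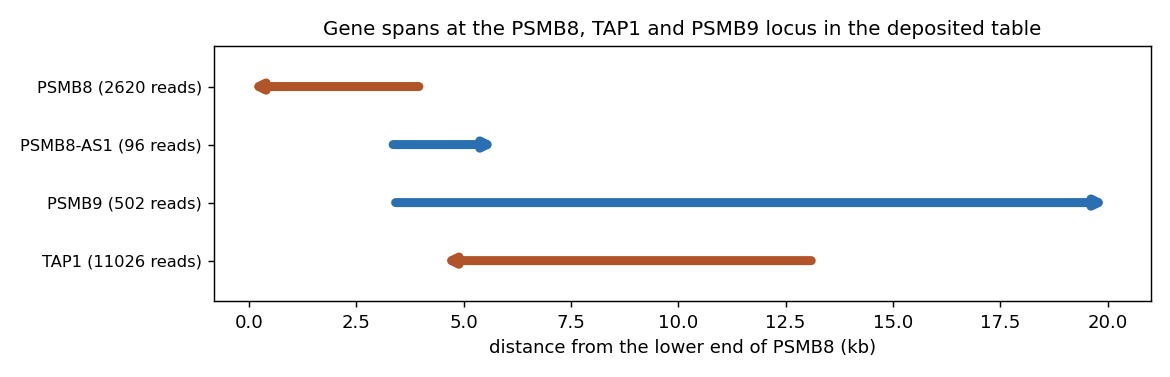
Spans of PSMB8, PSMB8-AS1, PSMB9 and TAP1 in the deposited table, by distance in kb from the lower end of PSMB8, with arrows in the direction of transcription and counts summed over the 9 libraries. TAP1, with 11026 counts, lies wholly inside the PSMB9 entry, which had 502.

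PSMB9 had 0.93, 1.01 and 1.07 CPM in PROTAC libraries, 0.587, 0.663 and 0.407 CPM in UNC libraries and 0.94, 1.16 and 0.683 CPM in DMSO libraries. All UNC libraries lay below every PROTAC and every DMSO library. These levels rest on 88, 72 and 34 counts in PROTAC, 61, 26 and 32 counts in UNC and 62, 98 and 29 counts in DMSO libraries. The paired log2 fold change of UNC against DMSO was -0.76 (SE 0.256, 95% interval -1.28 to -0.25), negative in 3 of 3 pairs at -0.68, -0.81 and -0.75, with an edgeR adjusted p of 0.0407. By group alone it was -0.79 with an adjusted p of 0.242. The paired call remained in 2 of 12 cases with libraries left out, those without PROTAC library 1 or 3, and the fold change then ran from -0.87 to -0.65 over all 12 (adjusted p 0.0344 to 0.254). For PROTAC against DMSO it was 0.08 (95% interval -0.42 to 0.57, edgeR paired adjusted p = 0.927). Because of the overlap, and because the strand setting of the counting is not given in the sources used here, PSMB9 counts may include reads of TAP1, and the part of such reads in the difference was not tested.

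TAP1 had 18.1, 21.3 and 19.4 CPM in PROTAC, 15.1, 19.7 and 16.5 CPM in UNC and 16, 19.7 and 19.2 CPM in DMSO libraries. The UNC and DMSO libraries overlapped, with a paired log2 fold change of -0.10 (95% interval -0.25 to 0.05) and 0 of 3 pairs positive. PROTAC against DMSO gave 0.11 (-0.04 to 0.25), with 3 of 3 pairs positive.

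PSMB8 had 5.19, 5.47 and 3 CPM in PROTAC, 4.29, 3.16 and 3.28 CPM in UNC and 4.23, 4.3 and 4.1 CPM in DMSO libraries. PROTAC library 3 was the lowest of all 9 and the other PROTAC libraries were the highest. The paired log2 fold changes were 0.13 (-0.15 to 0.41) for PROTAC and -0.21 (-0.49 to 0.07) for UNC against DMSO.

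**Figure D3:**
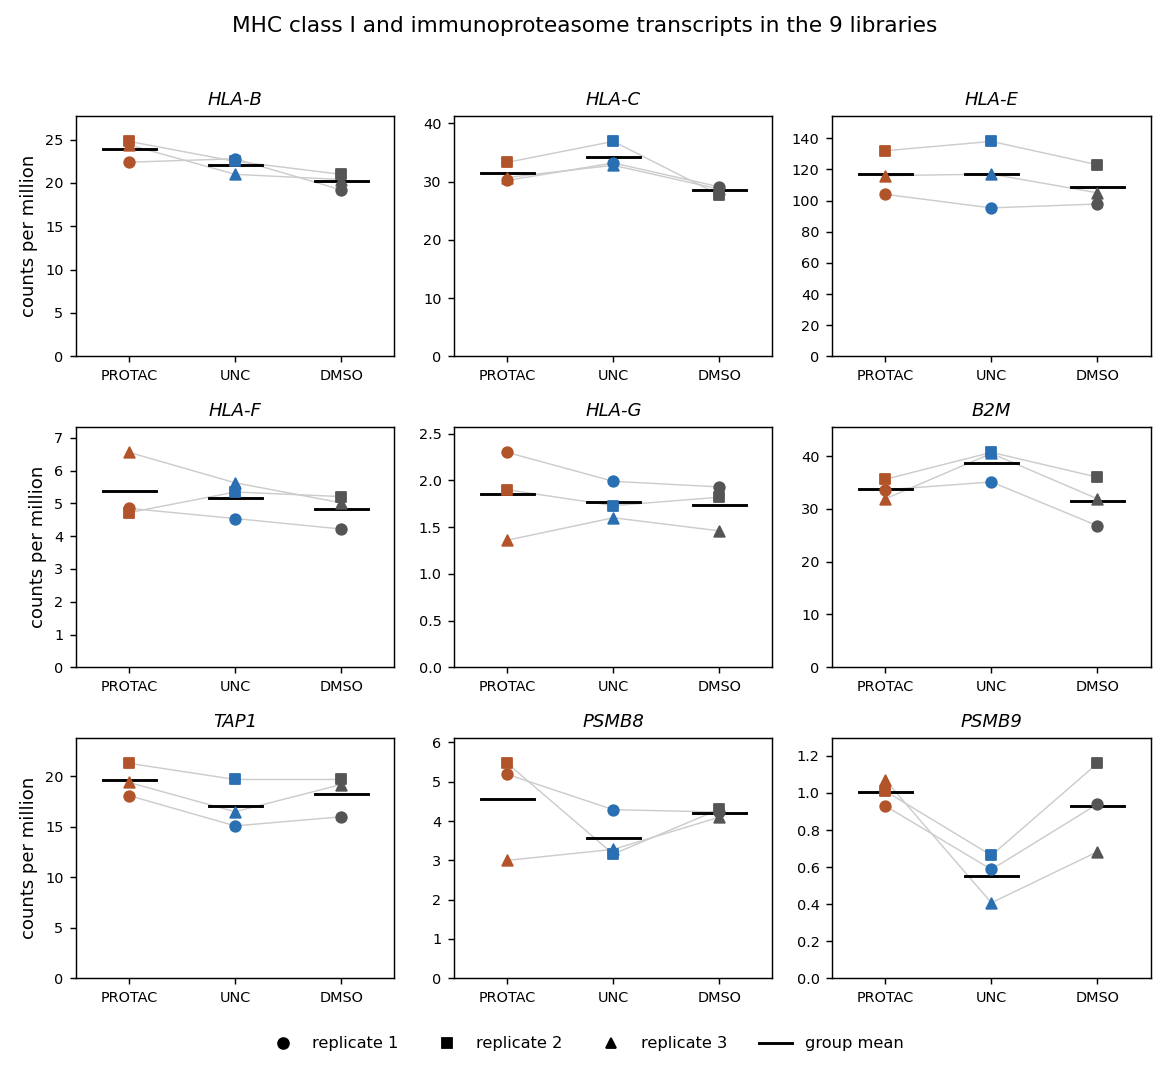
CPM of each gene in the 9 libraries, with PROTAC, UNC and DMSO from left to right, a symbol per replicate number, grey lines joining libraries of the same number and a bar for the group mean. HLA-B and HLA-C lie lowest in DMSO, and PSMB9 lies lowest in UNC at 0.407 to 0.663 CPM.

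Counted over the members, the paired fit called 1 of 9 for PROTAC against DMSO (HLA-B, higher), where 3.02% of all genes tested were called (2.03% higher and 0.988% lower). With library size alone or upper-quartile scaling that call was lost, and the paired calls over all genes split into 274 higher and 265 lower or 312 and 260, against 491 and 239. All 9 log2 fold changes were positive, with a median of 0.11 beside -0.01 for all genes tested. The libraries of HLA-B and HLA-C did not overlap, and both lay higher, as was so for 6.07% of all genes (5.44% lay lower and 11.5% in either direction). The group-alone fit called 0 of 9 with edgeR, where 0% of all genes were called, while 1 member had an unadjusted p under 0.05, as did 4.96% of all genes, and DESeq2 called 0 members and 23 genes in all.

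For UNC against DMSO the paired fit called 3 of 9, HLA-C and B2M higher and PSMB9 lower, where 13.5% of all genes tested were called (7.05% higher and 6.46% lower). Over all genes the split was 1705 higher and 1561 lower, and 1164 and 1915 with library size alone or 1328 and 1801 with upper-quartile scaling. HLA-B and HLA-C were higher and PSMB9 lower without overlap, against 17.4% of all genes in either direction (8.34% higher and 9.07% lower). Of the 9 log2 fold changes 6 were positive, and the 3 negative ones were those of TAP1, PSMB8 and PSMB9, while TAP2, a partner gene next to PSMB8, was at 0.08. The median was 0.09, beside -0.01 for all genes tested. The group-alone edgeR fit called 0 of 9, where 0.72% of all genes were called, while 3 members had an unadjusted p under 0.05, as did 12.4% of all genes. DESeq2 by group alone called 1 member, HLA-C, with an adjusted p of 0.0451, and 802 genes in all.

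PROTAC and UNC libraries were also compared directly, at doses that differ. No member was called in either fit with edgeR, where the paired fit called 2.9% of all genes, 2.16% as higher and 0.74% as lower, and the group-alone fit 0.00827%. In the paired fit 4 members had an unadjusted p under 0.05, as did 13% of all genes, and DESeq2 called 0 members and 625 genes in all. In the group-alone fit 1 member did, as did 4.7% of all genes, and DESeq2 called 0 members and 127 genes in all. PSMB9 came nearest, with a paired log2 fold change of 0.84 (95% interval 0.32 to 1.36) and an adjusted p of 0.0673 (edgeR), positive in 3 of 3 pairs and without overlap, as were 9.08% of all genes in either direction (5.15% higher and 3.93% lower). B2M was at -0.19 (-0.33 to -0.06), TAP1 at 0.21 (0.06 to 0.35), PSMB8 at 0.34 (0.06 to 0.62) and HLA-C at -0.12 (-0.25 to 0), with paired adjusted p of 0.117, 0.134, 0.242 and 0.397 (edgeR). B2M was called lower without PROTAC library 1 (-0.29), DMSO library 1 (-0.20) or all libraries numbered 1 (-0.27), and PSMB8 higher without PROTAC library 3 (0.51). For HLA-E the interval was -0.08 to 0.13, the narrowest of the 9.

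**Figure D4:**
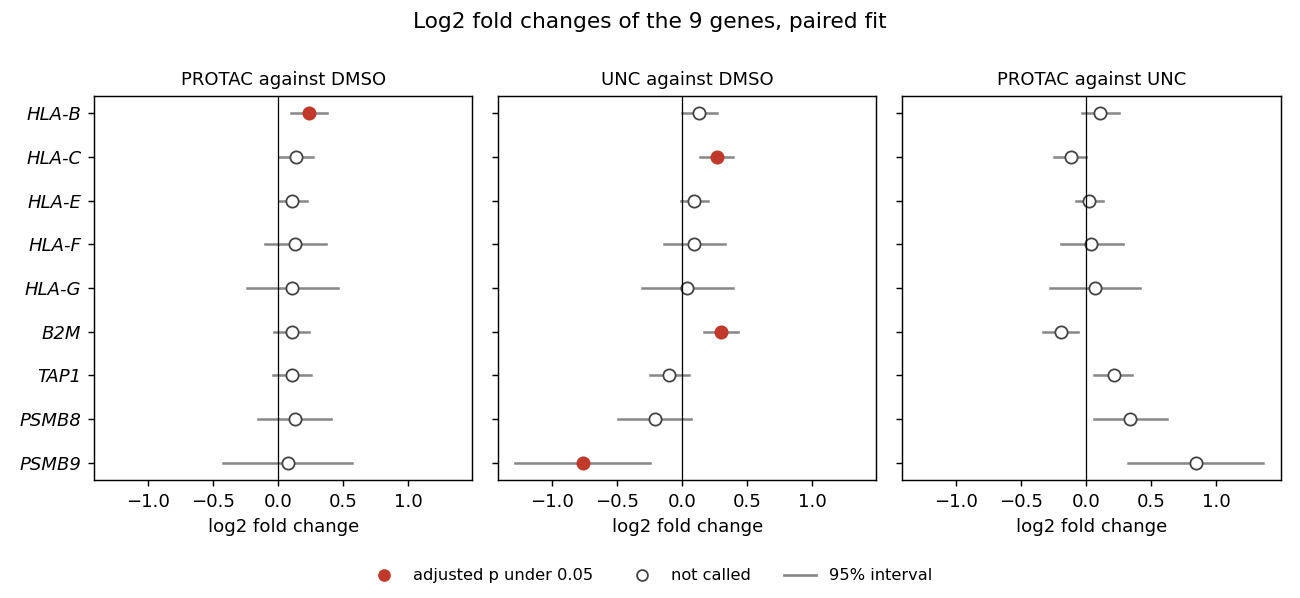
Log2 fold changes of the 9 genes with 95% intervals in the 3 comparisons of the paired fit, filled where the adjusted p was under 0.05. The filled points are HLA-B for PROTAC against DMSO and HLA-C, B2M and PSMB9 for UNC against DMSO, and of these PSMB9 alone is negative.

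Against their constitutive counterparts, the immunoproteasome subunits were low in every group. PSMB8 stood at 4.5 ± 1.13% of PSMB5 per kb in PROTAC, 3.62 ± 0.846% in UNC and 4.3 ± 0.37% in DMSO libraries (SD, n = 3 each). PSMB9 stood at 0.881, 0.948 and 1.3% of PSMB6 in PROTAC, 0.608, 0.636 and 0.401% in UNC and 1.03, 1.14 and 0.701% in DMSO libraries, with every UNC library lowest. An exact two-sided permutation test gave p = 0.1 for UNC against DMSO and for PROTAC against UNC, the smallest that 3 against 3 allows. PSMB10 was at 10.7 ± 2.52% of PSMB7 in PROTAC, 10.2 ± 1.24% in UNC and 9.87 ± 0.483% in DMSO libraries. PSMB5, PSMB6, PSMB7 and PSMB10 themselves had paired log2 fold changes between -0.08 and 0.06 against DMSO, and none was called. Of the 30 other proteasome subunits listed, PSMD14 was called higher under UNC (0.23), as were 7.05% of all genes. None of the 30 was called under the PROTAC, where edgeR gave 2 at an unadjusted p under 0.05 (15.9% of all genes) and DESeq2 called 1. By group alone edgeR called 0 of the 30 in each comparison with DMSO, with 1 at an unadjusted p under 0.05 and 0 called by DESeq2 in each.

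In the peptide-loading list of 9 genes, the paired fit called 2 higher for PROTAC and 3 higher for UNC against DMSO, and none lower. Of all genes tested, 2.03% and 7.05% were called higher. By group alone edgeR called 0 in each, with 0 and 3 at an unadjusted p under 0.05 (4.96% and 12.4% of all genes) and DESeq2 calling 0 and 1. CANX, a lectin chaperone that holds new heavy chains, had 804, 923 and 840 CPM in PROTAC, 804, 999 and 834 CPM in UNC and 683, 808 and 758 CPM in DMSO libraries. Its paired log2 fold changes against DMSO were 0.19 (SE 0.0528, edgeR adjusted p = 0.0368) for PROTAC and 0.23 (SE 0.0528, edgeR adjusted p = 0.00264) for UNC, with overlapping groups and all pairs positive. With libraries left out, the PROTAC call for CANX remained in 1 of 12 cases (adjusted p 0.0393 to 0.216) and the UNC call in 10 of 12, lost without UNC library 2 or all libraries numbered 2. PDIA3, a partner of tapasin in the loading complex, had 308, 316 and 295 CPM in UNC libraries and 250, 273 and 259 CPM in DMSO libraries, which did not overlap. The paired log2 fold change was 0.23 (SE 0.05, edgeR adjusted p = 0.00115). CALR, another chaperone of loading, rose by 0.19 under UNC, a call lost without UNC library 2 or 3, DMSO library 1 or 2, or all libraries numbered 2 (adjusted p 0.0555 to 0.153). ERAP1, which trims peptides, rose by 0.35 under the PROTAC (SE 0.102, edgeR paired adjusted p = 0.046), and the groups overlapped. By group alone its edgeR adjusted p was 0.993, and its paired call was not examined with libraries left out. TAP2 and TAPBP, the transporter partner and tapasin, were not called in any comparison, at 0.02 and 0.17 for PROTAC and 0.08 and 0.02 for UNC against DMSO.

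Of 14 class I transactivators, NLRC5 fell and NFKB1 rose under UNC, where the paired fit called 13.5% of all genes. None was called under the PROTAC, where 2 had an unadjusted p under 0.05 (15.9% of all genes) and DESeq2 called 0. By group alone edgeR called 0 of 14 in each comparison with DMSO, with 0 for PROTAC and 2 for UNC at an unadjusted p under 0.05, and DESeq2 called 0 for PROTAC and 1 for UNC. NLRC5 had 1.22, 1.2 and 1.17 CPM in PROTAC libraries, 0.856, 0.51 and 0.903 CPM in UNC libraries and 1.84, 1.25 and 1.15 CPM in DMSO libraries. Every UNC library lay below all the others. These levels rest on 115, 86 and 37 counts in PROTAC, 89, 20 and 71 counts in UNC and 121, 105 and 49 counts in DMSO libraries. The paired log2 fold change of UNC against DMSO was -0.88 (SE 0.223, 95% interval -1.33 to -0.42, edgeR adjusted p = 0.00604), and by group alone -0.87 with an adjusted p of 0.16. The paired call remained in 7 of 12 cases with libraries left out and was lost without UNC library 1 or 2, DMSO library 1, or all libraries numbered 1 or 2 (adjusted p 0.0622 to 0.111). For PROTAC against DMSO it was -0.24 (-0.68 to 0.19). NFKB1, a subunit of NF-kB, rose by 0.39 under UNC (SE 0.0923, edgeR paired adjusted p = 0.00292). By group alone its edgeR adjusted p was 0.167, and its paired call was not examined with libraries left out. IRF1, a transcription factor of interferon responses, was at -0.18 under UNC and was not called. In the same comparison 4 of 6 fibroblast markers tested were lower and 1 higher (by group alone 1 lower and 0 higher). Of all genes, the paired fit called 6.46% lower and 7.05% higher. Of 9 general pluripotency markers tested, PRDM14 (0.34), SOX2 (0.27) and LIN28A (0.19) were called higher under UNC. Under the PROTAC SOX2 (0.25) was, and none was lower. Of 14 naive markers, 3 were higher under UNC, ARGFX (1.68) and KLF5 (0.40) among them. Another 3 were lower, ESRRB (-0.57) and KHDC1L (-0.28) among them. Under the PROTAC 3 were higher and 2 lower, beside 2.03% and 0.988% of all genes. By group alone only ARGFX was called, under UNC. The part of the fibroblast, trophoblast and pluripotency markers in these differences was not tested.

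Of 33 tested interferon-stimulated genes among 47 listed, the paired fit called 0 higher and 1 lower (IFI16, -0.50) for PROTAC against DMSO. For UNC against DMSO it called 1 higher (SAMHD1, 0.19) and 1 lower (IFIT1, -0.52). The paired fit called 3.02% and 13.5% of all genes in these comparisons. The medians were 0.08 and -0.01, beside -0.01 for all genes tested in each. For PROTAC 21 values were positive and 12 negative, and for UNC 16 and 17. At an unadjusted p under 0.05 in the paired edgeR fit were 10 genes of the list for PROTAC and 7 for UNC, beside 15.9% and 25.6% of all genes. Among 14 genes of interferon receptors and signalling, JAK1 rose by 0.16 and SOCS3 fell by 0.43 under UNC, and none was called under the PROTAC, where 1 had an unadjusted p under 0.05 and DESeq2 called 0. By group alone edgeR and DESeq2 called none of either list. In the group-alone edgeR fit, 3 interferon-stimulated genes for PROTAC and 4 for UNC against DMSO had an unadjusted p under 0.05. Of the signalling genes, 0 did for PROTAC and 2 for UNC, beside 4.96% and 12.4% of all genes.

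**Figure D5:**
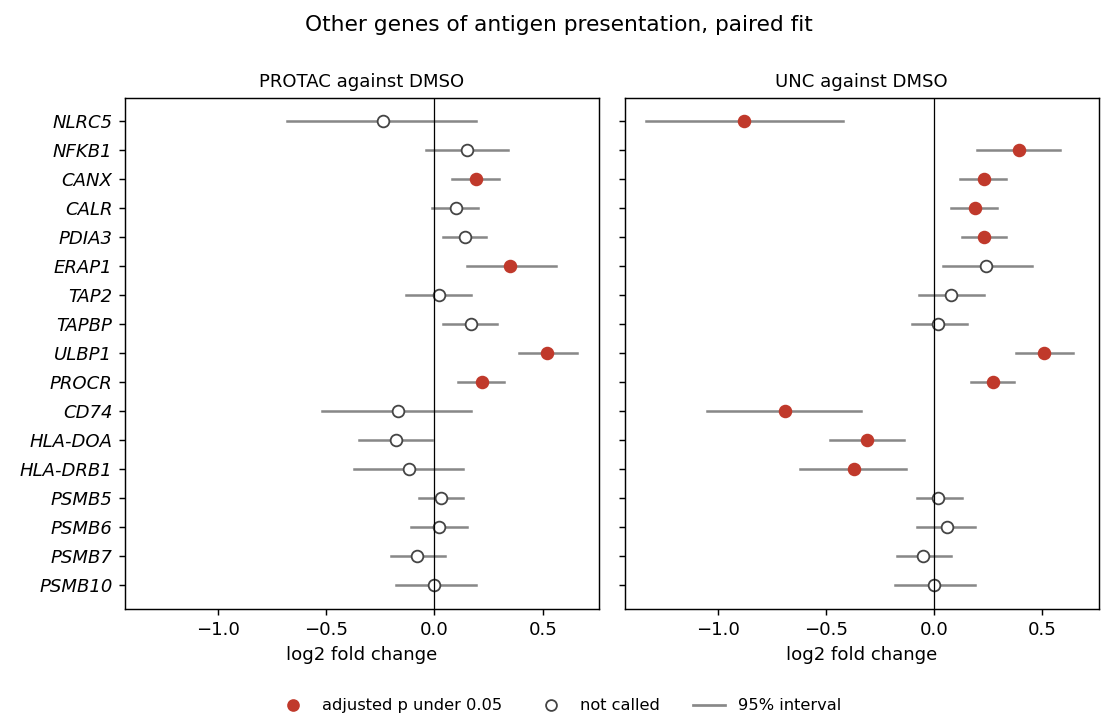
Paired log2 fold changes against DMSO, with 95% intervals, of genes that act with or beside class I, for PROTAC on the left and UNC on the right, filled where the adjusted p was under 0.05. ULBP1 and PROCR are positive under both compounds, while NLRC5 and CD74 are negative and filled under UNC.

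Among 14 tested class I-like molecules and NK ligands, 2 genes, ULBP1 and PROCR, were called higher under each compound in the paired fit. Of all genes, 2.03% were called higher for PROTAC and 7.05% for UNC against DMSO. ULBP1, a stress-induced ligand of the activating receptor NKG2D, had 35, 36.6 and 33.7 CPM in PROTAC libraries, 31.5, 37.5 and 35.5 CPM in UNC libraries and 23, 27.7 and 22.7 CPM in DMSO libraries. All 6 treated libraries lay above the DMSO libraries. The paired log2 fold changes were 0.52 for PROTAC (SE 0.0648, edgeR adjusted p = 3.11e-06) and 0.51 for UNC (SE 0.0645, edgeR adjusted p = 4.18e-07). The group-alone fit called ULBP1 for UNC (adjusted p = 0.0372) but not for PROTAC (0.328), with the same fold changes, and the paired calls remained in 12 of 12 cases with libraries left out. PROCR, a CD1-like receptor, rose by 0.22 under the PROTAC and by 0.27 under UNC, and the groups overlapped. By group alone PROCR was not called for PROTAC (edgeR adjusted p = 0.993) or UNC (0.564). The comparisons share the DMSO libraries.

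In the MHC from HLA-F to HLA-DPB1, taken as chr6:29722775-33089696, 157 of 249 entries were tested. The paired fit called 3 higher and 3 lower for PROTAC against DMSO, 2 higher and 11 lower for UNC against DMSO, and 2 higher and 0 lower for PROTAC against UNC. These are 3.82%, 8.28% and 1.27% of the entries tested, beside 3.02%, 13.5% and 2.9% of all genes. For UNC against DMSO the share lower was 7.01%, near the 6.46% of all genes, while the share higher was 1.27%, below the 7.05% of all genes. By group alone edgeR called none in the 3 comparisons, with 6, 13 and 3 at an unadjusted p under 0.05, and DESeq2 called 0, 1 and 0.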

How the data were processed

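Groups and replicate numbers were read from the titles of the samples; the series text speaks of 3 independent experiments. The authors deposited raw read counts per gene, as whole numbers, with GRCh38 coordinates. Trim Galore 0.6.10, HISAT2 2.2.1 and GRCh38 are named in the submitters' processing notes. How reads were counted, with which annotation and strand setting, is not given in these sources, so overlapping genes and near-identical HLA sequences can trade reads. Per the labels' protocols ribosomal RNA was depleted, while the molecule field reads polyA RNA. Of the 50-base stretches of the transcripts used, up to 6.79% (HLA-C) also occur in other genes.

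The 5 entries without an identifier (at most 0.0103% of counts) were left out. Counts were fitted with edgeR 4.0.16 in R 4.3.3: TMM, the default filter by group, and robust quasi-likelihood fits and two-sided tests, with group as the only term over the 9 libraries (6 residual degrees of freedom). The paired fit adds the replicate number (4 residual degrees of freedom). Deviations from the group means of libraries with the same number correlated at 0.106 to 0.472 in all 9 pairs, and those of different numbers at -0.324 to 0.0748. Deviations sum to 0 within a group, so positive values for same numbers push the others down. The second range is thus not separate evidence of pairing. All 9 were above the threshold of 0.1 for treating numbers as pairs. No label says that a shared number is a shared experiment. Lengths are those of GENCODE 29 principal transcripts. CPM are TMM-scaled. No 2 libraries of a group agreed within counting noise. Scripts were tested on simulated data. DESeq2 1.42.0, other scalings, filters and libraries left out were tried as alternatives. The alternatives to the paired fit, and all those for NLRC5, ULBP1, CANX, CALR, PDIA3 and CD74, were chosen after seeing the data.

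The members, the 14 gene lists and the alternatives were chosen with earlier results of these data known. All 9 members are named. From the lists, up to 4 genes called against DMSO in either fit were named in order of p. PSMB5, PSMB6, PSMB7, PSMB10, TAP2, TAPBP and NLRC5 were named whatever their values. No gene of the amnion or fibroblast list is named, though both lists held calls. The amnion list is not described further. Of the trophoblast calls only GATA2 and GATA3 are named. The bounds of the MHC interval and the genes in the plot of genes that act with or beside class I were set after their values were seen. Other names, such as IRF1, POU5F1, PTPRC and HLA-F-AS1, were chosen after values were seen. RefSeq promoters matched 8 of the 9 members.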

Additional observations from a re-analysis of the deposited data

How the results depend on the processing

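The replicate block gave 1 member called for PROTAC against DMSO and 3 for UNC against DMSO, where the group-alone fit gave 0 in each, and 0 for PROTAC against UNC. DESeq2 by group alone called 1 member for UNC against DMSO. In the paired fit the PROTAC against DMSO count was 0 with library size alone, with upper-quartile scaling, with a 1 CPM filter and at a false discovery rate of 0.01. With libraries left out the paired counts were 0 to 0 for PROTAC against DMSO, 1 to 3 for UNC against DMSO and 0 to 1 for PROTAC against UNC. Over all paired alternatives the HLA-B call was kept in 3 of 18, that of HLA-C in 15 of 18, that of B2M in 18 of 18 and that of PSMB9 in 5 of 17, since PSMB9 was not tested under the 1 CPM filter. PSMB9 had an adjusted p of 0.051 without a count filter and 0.0751 with DESeq2.

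Signs were reversed only with libraries left out, among values not called in either fit, and the cause was not tested. The ranges were as follows. For PROTAC against DMSO by group alone, B2M ran from -0.01 to 0.20, HLA-F from -0.01 to 0.29, HLA-G from -0.07 to 0.27, PSMB8 from -0.02 to 0.34, PSMB9 from -0.13 to 0.28 and CD74 from -0.43 to 0.03, and in the paired fit B2M from -0.01 to 0.18, PSMB8 from -0.06 to 0.31, PSMB9 from -0.12 to 0.26 and CD74 from -0.43 to 0. For UNC against DMSO, HLA-E ran from -0.04 to 0.23 and HLA-G from -0.07 to 0.11 by group alone, and HLA-G from -0.04 to 0.09 paired. For PROTAC against UNC, HLA-E ran from -0.11 to 0.15, HLA-F from -0.11 to 0.15 and HLA-G from -0.10 to 0.24 by group alone, and from -0.04 to 0.06, -0.05 to 0.16 and -0.04 to 0.17 paired (HLA-E -0.03 without all libraries numbered 1), ULBP1 from -0.05 to 0.07 by group alone and -0.06 to 0.07 paired, and CANX from -0.10 to 0.06 and -0.07 to 0.01.

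Over all genes, the group-alone counts of 0 (PROTAC against DMSO), 174 (UNC against DMSO) and 2 (PROTAC against UNC) were 72, 832 and 244 without a count filter, 23, 802 and 127 with DESeq2, and 730, 3266 and 701 with the replicate block. UNC against DMSO gave 73 in a fit of 6 libraries, 35 at a false discovery rate of 0.01 and 0 to 260 with libraries left out. PROTAC against UNC gave 1 with RLE scaling or the 1 CPM filter, 0 with 6 libraries or at 0.01, and 0 to 35 with libraries left out. Paired counts were 265, 1735 and 409 at 0.01, and 139 to 643, 1164 to 3798 and 279 to 922 with libraries left out. Low counts limit PSMB9, HLA-G and NLRC5, with 26 to 98, 43 to 218 and 20 to 121 counts per library.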

Other observations

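MHC class II transcripts were also present. HLA-DPB1 had 14.7, 16.3 and 15.7 CPM in PROTAC, 14.8, 18 and 16.7 CPM in UNC and 15, 15.2 and 16.3 CPM in DMSO libraries, while HLA-DRA, the DR alpha chain, was at 0 to 0.014 CPM in PROTAC, 0 in all UNC and 0.0236 to 0.0594 CPM in DMSO libraries. The HLA-DRA values rest on 1, 1 and 0 counts in PROTAC, 0 in all UNC and 3, 5 and 1 counts in DMSO libraries. CIITA, the class II transactivator, was at 0.0236 to 0.221 CPM over all libraries, on 1 to 23 counts. Of 9 class II genes tested, the paired fit called 3 lower and none higher for UNC against DMSO, beside 6.46% and 7.05% of all genes. None was called for PROTAC against DMSO, where edgeR gave 1 at an unadjusted p under 0.05 and DESeq2 called 0. By group alone edgeR called none, with 3 for UNC and 0 for PROTAC at an unadjusted p under 0.05, and DESeq2 called 0 in each. CD74, the invariant chain, had 1.63, 1.45 and 1.47 CPM in UNC and 2.38, 2.67 and 2.38 CPM in DMSO libraries, which did not overlap. Its paired log2 fold change was -0.69 (SE 0.176, edgeR adjusted p = 0.00587), and the call remained in 8 of 12 cases with libraries left out, lost without UNC library 1 or 2, DMSO library 3 or all libraries numbered 2. HLA-DRB1 fell by 0.37 and HLA-DOA by 0.31 in the same comparison. HLA-DRB1 had 123 to 432 counts per library, and whether reads of other genes were counted for it was not tested. HLA-DPB1, HLA-DRA and CIITA were named after their values were seen.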
